A study of Rattus norvegicus with 35 samples.

Results

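The liver transcriptome described here is that of the 6 vehicle rats of the series, chosen by their array titles from 35 arrays in all, with 1 array per rat. These rats were male Harlan Sprague Dawley, 7 weeks old at the start, and received corn oil by oral gavage at 5 ml/kg body weight on 5 consecutive days. The other 29 rats of the series received BTBPE, 1,2-bis(tribromophenoxy)ethane, a brominated flame retardant, in corn oil: 6 rats at 0.07 mg/kg, 6 at 0.69 mg/kg, 6 at 6.88 mg/kg, 5 at 68 mg/kg and 6 at 680 mg/kg. RNA came from the left liver lobe, taken 1 day after the last dose. No rat went without gavage, so the levels are those of oil-fed rats and hold nothing on what the oil itself did. A piece of lobe also pools every cell type and every zone of the lobule, at 1 time point.

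Hepatocytes make up most of the mass of the liver. They secrete the majority of plasma proteins, dispose of ammonia as urea, store and release glucose, build and oxidise fatty acids, turn cholesterol into bile acids, and oxidise and conjugate drugs, steroids and other small molecules. Kupffer cells (the resident macrophages), sinusoidal endothelium, stellate cells, cholangiocytes and lymphocytes occupy the rest, and many hepatocyte genes are expressed in a gradient between the portal tract and the central vein. In the rat, a set of hepatocyte P450 and carrier genes also differs strongly between the sexes under the control of growth hormone.

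Levels are the authors' deposited RMA values on the log2 scale, 1 value per probe set and array, and a gene's level is the mean of the 6 arrays for its probe set with the highest mean. Probe sets differ in affinity, so a higher signal of 1 gene than of another is a rank of brightness and not of abundance. The deposited values carry no detection call. A background threshold was therefore taken from 119 measured genes that are restricted to other tissues (hormones, crystallins, photoreceptor, sperm and neuronal genes and the like): their levels had a median of 3.63 and a range of 1.99 to 6.71, and their 95th percentile, 5.29, was used. By construction 6 of them lay above it, led by Krt10 at 6.71 ± 0.65 (SD, n = 6), Lhb at 6.16, Ins1 at 5.49, Fabp2 at 5.39 and Cck at 5.38. Of 14217 genes, 8511 (59.9%) were above the threshold and 5706 were not. The median level was 5.98 over all genes and 7.32 over those above background. The medians of the 6 arrays lay between 4.72 and 4.76. RMA gives all arrays 1 distribution, so near-equal medians do not show that the arrays are alike. Pearson's r between pairs of arrays was 0.994 to 0.996 in 15 pairs, across all 31042 probe sets that are not controls. It describes the arrays and is no test. The difference between the 3′ and 5′ probe sets of the actin control was 1.02 to 1.37 on dosed arrays and 1.04 to 1.23 on vehicle arrays. The 5S rRNA control differed more, at 7.38, 6.40, 8.43, 7.14, 6.41 and 7.32 in vehicle rats 1 to 6, highest in rat 3.

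The liver label was borne out by the 3 marker genes. Alb, which encodes serum albumin, was the brightest gene on the arrays, with 14.39, 14.4, 14.4, 14.44, 14.23 and 14.42 in vehicle rats 1 to 6, a mean of 14.38 ± 0.078 (SD, n = 6). The value of rat 5 stood apart below the others. Apoa1, the main protein of high-density lipoprotein, had 13.13, 13.07, 13.05, 13.15, 13.01 and 13.17, a mean of 13.1 ± 0.062. Cyp2e1, the ethanol-oxidising P450 of hepatocytes around the central vein, had 13.34, 13.31, 13.23, 13.31, 13.22 and 13.18, a mean of 13.27 ± 0.064. All 18 measured members of a wider list of hepatocyte identity genes were above background, with a median level of 13.14, and 14 of them were among the 100 brightest genes.

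Secreted plasma proteins were the largest class of the brightest transcripts. They were 9 of the 10 brightest genes, 30 of the 40 brightest and 48 of the 100 brightest, by classes assigned by hand after the 100 genes were known. Only probe sets with 1 gene symbol were ranked. The 10216 probe sets without a single symbol were left out, the brightest of them at 14.03, between the first and second ranked genes. After Alb came Gc, the vitamin D binding protein, at 13.87 ± 0.021, Serpina1, the inhibitor of neutrophil elastase, at 13.86 ± 0.028, Apoc3, an inhibitor of triglyceride clearance, at 13.84 ± 0.029, Ttr, the carrier of thyroxine and retinol binding protein, at 13.83 ± 0.039, and Apoe, a ligand of lipoprotein receptors, at 13.82 ± 0.016. Gc was at 13.84, 13.9, 13.87, 13.87, 13.84 and 13.86 in rats 1 to 6, so its whole range was under 0.1. The 3 fibrinogen chains were all in the top 40, with Fgg at 13.75 ± 0.019, Fga at 13.61 ± 0.045 and Fgb at 13.52 ± 0.01. Hp (haptoglobin, which binds free haemoglobin), Apoh, Rup2, C3 (the central complement component), Ahsg, Ambp, Serpina3l, Rbp4, Itih3, Apoc1, Serpina3c, Serpinc1 (antithrombin), Selenop (the selenium carrier), Apob, Rnase4, Fetub, Hpx, Apoa2, Pzp, Vtn and Itih4 completed the plasma proteins of the top 40, between 13.69 for Hp and 13.12 for Itih4.

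The 4 sequences printed here show start regions with few and with many CG dinucleotides. Each is the 250 bases before the gene start in RefSeq on the rat assembly GRCr8, written 5′ to 3′ on the gene's own strand. Alb (chr14:17906980-17907229, minus strand) is shown as the brightest gene, Fgg (chr2:170652833-170653082, plus strand) and Fabp1 (chr4:104749090-104749339, plus strand) as the 2 brightest genes whose window holds TATAAA, and Actr2 (chr14:98535093-98535342, minus strand) as the gene among the 20 least variable with the most CG dinucleotides. Capitals mark TATAAA and GTTAAT, which is one arm of the palindrome bound by the hepatocyte factor HNF1, in the first 3 sequences, and every CG in the last.
Alb: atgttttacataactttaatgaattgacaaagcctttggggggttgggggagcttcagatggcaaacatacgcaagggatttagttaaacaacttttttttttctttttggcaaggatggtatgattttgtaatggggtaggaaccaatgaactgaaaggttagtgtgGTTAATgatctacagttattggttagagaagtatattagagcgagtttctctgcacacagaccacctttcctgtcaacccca
Fgg: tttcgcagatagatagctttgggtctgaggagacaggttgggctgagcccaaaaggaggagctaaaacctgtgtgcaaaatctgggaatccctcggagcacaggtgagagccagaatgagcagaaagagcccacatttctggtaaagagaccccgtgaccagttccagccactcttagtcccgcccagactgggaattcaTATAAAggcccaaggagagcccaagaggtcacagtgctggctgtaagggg
Fabp1: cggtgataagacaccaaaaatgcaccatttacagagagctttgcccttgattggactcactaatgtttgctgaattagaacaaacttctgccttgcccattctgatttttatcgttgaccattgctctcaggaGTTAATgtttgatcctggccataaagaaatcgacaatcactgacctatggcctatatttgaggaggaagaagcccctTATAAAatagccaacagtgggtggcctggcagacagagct
Actr2: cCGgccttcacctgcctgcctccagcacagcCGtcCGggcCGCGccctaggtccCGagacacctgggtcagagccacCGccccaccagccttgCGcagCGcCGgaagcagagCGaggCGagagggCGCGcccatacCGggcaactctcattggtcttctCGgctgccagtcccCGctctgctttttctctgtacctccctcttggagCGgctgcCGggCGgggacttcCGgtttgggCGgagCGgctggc
In Alb, GTTAAT begins 82 bases before the start. In Fgg, TATAAA begins 50 bases before it. In Fabp1, TATAAA begins 40 bases and GTTAAT 117 bases before it. The Actr2 window holds 23 CG and neither motif, against 2 CG in the Alb window.

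The low CG count of the Alb, Fgg and Fabp1 windows was shared by the brightest genes as a group, whereas the high count of Actr2 was not shared by the least variable genes. Of the 100 brightest genes, 81 had such a window, and its median number of CG was 4, against 15 over all 11700 genes with a window and 17 over the 7185 of them above background. Both motifs were searched on both strands, and they do not overlap each other in the printed sequences. TATAAA was in 16 of the 81 windows (19.8%) and GTTAAT also in 16 (19.8%), against 8.06% and 4.32% of all windows. These 81 windows also held less G and C, with a median share of 51.2%. That share was 59.2% over all windows, 60.4% above background and 43.8% in the bright genes of drug, steroid and alcohol metabolism. The part of base composition in the motif counts was not tested. Among the bright plasma protein genes, 11 of 39 windows (28.2%) held GTTAAT and the median CG count was 3. Among the bright genes of drug, steroid and alcohol metabolism, 7 of 16 windows held TATAAA, 1 held GTTAAT, and the median CG count was 2. The 5 windows of bright translation genes had a median of 21 CG. The 84 windows of the 100 least variable genes had a median of 15 CG, as over all genes but below the 17 of genes above background. TATAAA was in 8 of them (9.52%) and GTTAAT in 9 (10.7%). The shares over genes above background, from which they were drawn, were 6.64% and 4.06%. The 80 windows of the 100 most variable genes had a median of 10.5 CG, with TATAAA in 19 (23.8%), a larger share than among the brightest, and GTTAAT in 5 (6.25%). These are counts of letters in a fixed window. They are not evidence that a factor binds there, and they were not tested.

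Enzymes that handle drugs, steroids and alcohol were the next class, with 5 of the 40 brightest genes and 19 of the 100 brightest. Mgst1, the microsomal glutathione transferase, led at 13.55 ± 0.034. Cyp3a2, a male-predominant steroid and drug hydroxylase, followed at 13.38 ± 0.051, then Cyp2e1, Cyp2c6v1 at 13.18 ± 0.10, and Cyp2c11, the testosterone hydroxylase typical of adult male rats, at 13.1 ± 0.083. The top 40 also held Fabp1, the cytosolic fatty acid carrier, at 13.56 ± 0.027, Car3, a carbonic anhydrase of male rat liver, at 13.41 ± 0.036, and B2m, the light chain of MHC class I, at 13.35 ± 0.065. COX2 and COX1, which are encoded by mitochondrial DNA, stood at 13.7 ± 0.051 and 13.19 ± 0.14. COX1 was at 13.32, 13.33, 13.03, 13.02, 13.3 and 13.15 in rats 1 to 6, a spread above the median of the 100 brightest genes. The other classes of the 100 were amino acid, urea and carbohydrate metabolism with 7 genes, translation with 6, lipid handling with 5, mitochondrial proteins of energy metabolism with 4, antioxidant enzymes with 3 and other functions with 8. The genes just inside and just outside the 100 had levels of 12.4244 and 12.4193, so membership at that edge is arbitrary.

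All measured genes of the complement, coagulation, plasma protease inhibitor and apolipoprotein lists were above background, against 59.9% of all genes. When families were taken by symbol, 14 of 15 apolipoprotein and 22 of 33 serpin genes were above it. Of 17 listed alpha2u globulins and lipocalins, 7 were measured by a probe set of 1 symbol, so the list is covered in part. Of these 7, 3 (42.9%) were above background, with a median of 5.23. Rbp4, Obp3 and Mup5 were those 3. All 21 measured complement components were, from C3 at 13.61 and Cfi at 12.5 down to Cfp at 7.21 and Cfd at 7.2, which myeloid cells and fat are known to make. All 14 coagulation factors were, from Fgg, Fga and Fgb to Klkb1 at 11.33, Pros1 at 10.43 and F5 at 9.65, and so were all 19 plasma protease inhibitors and all 17 apolipoprotein and lipoprotein assembly genes. The median levels of these lists were 11.6, 12.02, 12.31 and 12.08. A2m, the acute phase macroglobulin of the rat, was the lowest of the protease inhibitors at 9.07 ± 0.23, and Pltp, which transfers phospholipids between lipoproteins, the lowest of the apolipoprotein list at 7.58 ± 0.11. Of the acute phase and iron proteins, 14 of 16 were above background. Lcn2 (5.23) and Il1rn (5.02), both of which rise in inflammation, were the 2 below it, while Crp was at 12.22 and Hamp, the iron-regulating hormone hepcidin, at 12.4 ± 0.17. Orm1, an acute phase carrier, differed more between rats than the other bright carriers, with 11.31, 12.18, 11.95, 11.51, 12.32 and 11.88.

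Intermediary metabolism was above background nearly throughout. All 13 urea cycle and ammonia genes passed, led by Cps1 at 12.7 and Arg1 at 12.42, the first and the last enzyme of the cycle, and all 38 genes of amino acid metabolism did, led by Cth at 12.7, Hpd at 12.67 and Cdo1 at 12.63. The lowest of the amino acid genes was Sds, the serine dehydratase of gluconeogenesis, at 5.54 ± 0.36. In glucose metabolism 22 of 24 passed. Pck1, which commits oxaloacetate to gluconeogenesis, was at 12.6 ± 0.11, whereas the hexokinases of other tissues, Hk1 and Hk2, were at 4.86 and 2.91, below the threshold. In fatty acid oxidation 24 of 26 passed, with Acaa2 at 12.45 and Acadm at 11.94. Ppara, the receptor that activates this pathway, read 5.2, 4.51, 5.31, 5.49, 5.04 and 5.44 with a mean of 5.16, on both sides of the threshold, and Acot1 was at 2.45. In fatty acid and triglyceride synthesis 19 of 21 passed, from Elovl5 at 12.09 ± 0.032 to Gpam at 6.03, with Acacb (3.75) and Pnpla3 (4.96) below. All 17 genes of cholesterol synthesis and uptake passed, led by Fdps at 12.3 and Cyp51 at 11.78. In bile acid synthesis and transport 19 of 20 passed, led by Slc10a1, the sodium-dependent bile acid importer, at 12.62 ± 0.028. Cyp7b1, the oxysterol hydroxylase, was the exception at 2.65.

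Most genes of the respiratory chain, the proteasome and the ribosome were above background. Of the subunits named in the list of the mitochondrial respiratory chain all 35 passed, with a median of 10.84, led by Atp5f1b at 12.59 ± 0.029 and Atp5pb at 12.25 ± 0.021, both parts of ATP synthase. All 37 proteasome genes passed, with Psmc3ip, which is no proteasome subunit but shares the symbol pattern, the lowest at 5.48. Of genes with ribosomal protein symbols, 39 of 44 passed, with a median of 11.89, led by Rps29 at 12.82 and Rpl26 at 12.58. Rpl28, Rps13 and Rpl30 read 2.66, 3.47 and 3.49, close to the background list, although every ribosome holds their products. A low signal of a probe set therefore does not show that a gene is silent. The same is seen between probe sets of a gene: of 3244 genes above background with more than 1 probe set, 1918 (59.1%) had another probe set at or below the threshold, and over all 4525 genes with several probe sets the median gap between the highest and the lowest was 1.70.

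The share of P450 genes above background was 76% in family 2, 70% in family 4 and 50% in families 7 to 51. Over all genes it was 59.9%. Families 1 and 3 had 3 and 4 measured members, too few for a share. Differences between families were not tested. Of family 2, which holds most drug-metabolising forms, 19 of 25 were above background, with Cyp2e1, Cyp2c6v1, Cyp2c11, Cyp2d2 (13.01), Cyp2c13 (12.96) and Cyp2c22 (12.75) highest, and Cyp2b12 (2.3), Cyp2a3 (2.94), Cyp2b21 (3.39) and Cyp2g1 (3.87) lowest. All 4 measured members of family 3 passed, with Cyp3a23-3a1 at 12.37 ± 0.21, Cyp3a18 at 12.05 ± 0.25 and Cyp3a9 at 7.64 ± 0.35 below Cyp3a2. In family 1, Cyp1a2, the constitutive liver form, was at 12.56 ± 0.084, while Cyp1a1 and Cyp1b1, which are induced through the aryl hydrocarbon receptor, were at 4.56 ± 0.23 and 4.62 ± 0.18, under the threshold. In family 4, whose members hydroxylate fatty acids, 7 of 10 passed, led by Cyp4f1 at 12.15 and Cyp4a1 at 11.22. Of families 7 to 51, 8 of 16 passed. The sterol and bile acid forms Cyp51, Cyp27a1 (10.98), Cyp7a1 (10.77) and Cyp8b1 (10.62) were the highest, and the steroid-making forms of adrenal and gonad, Cyp11b1 (2.36), Cyp19a1 (3.43) and Cyp21a1 (3.82), were among the 4 lowest. Probe sets of such near-identical genes can share transcripts, so a value of 1 member may include its relatives.

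Conjugating enzymes and carriers differed in the share of members above background, which was 59.9% over all genes. Of glutathione S-transferases 20 of 23 passed, led by Mgst1, Gstm1 (12.61) and Gsta1 (12.39), and Gsta3l1 was the lowest at 2.1. Of UDP-glucuronosyltransferases 5 of 7 passed, led by Ugt2b35 at 12.81 ± 0.072, with Ugt2a1 (5.15), an olfactory form, and Ugt2b7 (4.09) below. The symbol Ugt2b, the most variable gene, is not counted among these 7. Of sulfotransferases 8 of 14 passed. Sult1e1, which sulfates oestrogens, was at 12.88 ± 0.12, and Sult2a1 and Sult2a2, the hydroxysteroid forms of female rat liver, read 2.0 and 2.33. Of carboxylesterases 4 of 5 passed, with Ces1c at 12.89 and Ces5a, an epididymal form, at 3.54. Of alcohol and aldehyde dehydrogenases 19 of 22 passed, with Adh1c at 12.76 and Aldh3a1, a corneal and inducible form, at 3.05. Of the Slco and Slc22 carriers of organic anions and cations 13 of 29 (44.8%) passed. Slco1a4 (11.94), Slco1b2 (10.94) and Slc22a7 (10.74), importers of the sinusoidal membrane, were high, while Slc22a12, the urate exchanger of kidney, read 2.52 and Slco1c1, the thyroxine carrier of brain capillaries, 2.49. Of ATP-binding cassette transporters 28 of 37 passed, with Abcb11, the bile salt export pump, at 10.41 ± 0.055.

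Male-predominant genes were above background more often than the 59.9% of all genes, and female-predominant genes about as often. All 15 measured male-predominant genes were above background, with a median of 11.89, led by Cyp3a2, Cyp2c11, Cyp2c13 and Sult1e1, and with Obp3, a lipocalin of the alpha2u globulin type, at 11.6, 12.24, 12.63, 12.29, 12.4 and 12.13. Of the female-predominant genes 8 of 12 (66.7%) were above background, with Cyp2c7 at 12.6 ± 0.27 and Hao2 at 12.37 ± 0.04 highest. Cyp2c12, the steroid disulfate hydroxylase typical of female rats, had 10.65, 11.58, 11.44, 11.03, 11.21 and 11.11 in rats 1 to 6, above the threshold in 6 of 6. A1bg, Cux2, Sult2a1 and Sult2a2, all typical of female rat liver, were at 3.41, 3.21, 2.0 and 2.33. Whether the Cyp2c12 probe set also read related Cyp2c transcripts was not tested. Of fetal and oncofetal genes 6 of 12 passed, with Aldoa at 8.75, Gstp1 at 8.26 and Afp, the fetal counterpart of albumin, at 7.81, 7.96, 8.14, 8.04, 8.11 and 7.78, while Dlk1 (3.69), Hkdc1 (3.63), Akr1b10 (3.29) and Hk2 were lowest.

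Hepatocyte regulators read at moderate levels. Of 28 measured transcription factors and nuclear receptors, 26 were above background, with a median of 8.1. Hnf4a, a receptor that maintains hepatocyte identity, was at 11.47 ± 0.098, Creb3l3, a membrane-bound factor of lipid metabolism, at 10.8 ± 0.051, and Cebpb and Cebpa at 10.45 ± 0.40 and 9.68 ± 0.27. Esr1, the oestrogen receptor, read 3.86 and was below the threshold with Ppara. Of circadian clock genes and their outputs 12 of 17 passed, with Clock at 8.03 and Nfil3 at 7.93 highest. Dbp and Nr1d1, whose transcripts swing widely over the day, were at 3.89 and 4.54 ± 0.89, below the threshold. The labels give no hour of necropsy, so these levels belong to 1 unknown clock time.

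Markers of the other liver cells were present to different degrees. In bulk liver, fewer cells of a type and less RNA per cell cannot be told apart. Kupffer cell and macrophage genes were above background in 16 of 16 cases, with a median of 8.49. Lyz2 (lysozyme) was at 10.02 ± 0.30, Clec4f, a lectin of rodent Kupffer cells, at 9.91 ± 0.28, C1qa, a subunit of complement C1q, at 9.52 ± 0.24, and Cd163, the haemoglobin scavenger receptor, at 6.59 ± 0.26. Of endothelial genes 15 of 18 passed, with a median of 7.24. Those of sinusoids were high, with Dnase1l3 at 9.64, Lyve1 at 9.47, Fcgr2b at 9.38 and Stab2 at 8.31, whereas Vwf, of larger vessels, was at 5.07, and the growth factor receptors Flt4 and Flt1 were at 4.43 and 4.11. Of stellate cell, fibroblast and matrix genes 15 of 22 (68.2%) passed, with a median of 6.06, near the 59.9% and 5.98 of all genes. At the 90th and 99th percentiles of the background genes 20 and 11 of them passed. Col3a1, a fibrillar collagen, was at 10.75 ± 0.19, Colec11 at 9.6, Reln and Lrat, the retinol esterifying enzyme of stellate cells, at 8.25 and 7.99, while Rgs5, Thy1 and Ngfr were at 4.95, 3.66 and 2.92.

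**Figure D1:**
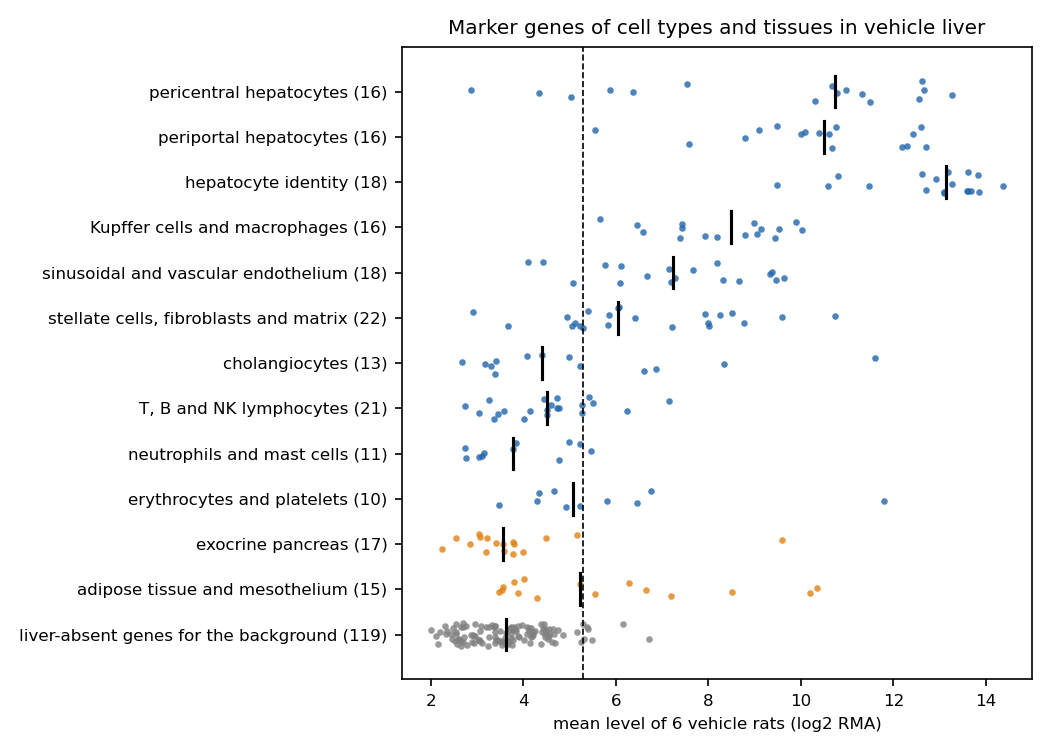
Mean level of each marker gene over the 6 vehicle rats (x axis, log2 RMA), 1 point per gene, by list (y axis, number of measured genes in brackets), with the list median as a black bar and the background threshold of 5.29 as a dashed line. All hepatocyte identity and Kupffer cell genes lie to the right of the threshold, while most cholangiocyte, lymphocyte, neutrophil and pancreas genes lie to its left with the background genes.

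Cholangiocyte, lymphocyte, neutrophil and pancreas lists read mostly near background, and blood and fat lists in part above it. Of 13 cholangiocyte genes 4 passed: Tm4sf4 at 11.6, Epcam at 8.34, Aqp1 at 6.88 and Slc4a2 at 6.62. The 2 keratins that define bile ducts, Krt19 and Krt7, were at 4.98 and 3.38, and Cftr, their chloride channel, was at 3.18. The list median was 4.41, against 3.63 for the background genes. Of 21 lymphocyte genes 4 passed, Ccl5 at 7.15 ± 0.40, Ptprc at 6.23, Lck at 5.5 and Prf1 at 5.41. At the 90th and 99th percentiles of the background genes 9 and 2 lymphocyte genes passed. The T cell receptor subunits Cd3e and Cd3d were at 4.6 and 3.59. Of 11 neutrophil and mast cell genes S100a9 alone passed, at 5.47, and its partner S100a8 read 3.85, while 4 and 0 of the list passed at those percentiles. Blood was evident from Hbb, the beta chain of haemoglobin, at 11.94, 11.77, 11.77, 12.12, 11.74 and 11.47 in rats 1 to 6. Alas2, the haem enzyme of red cell precursors, was at 6.45 ± 0.28, and Klf1, the factor that drives the erythroid programme, at 4.34. Of 17 exocrine pancreas genes Cela1 alone passed, at 9.6 ± 0.33, or 2 genes at the 90th percentile, while Cpb1 and Cel read 5.15 and 4.48, and Amy2a3 2.23. Of 15 genes of fat and mesothelium 7 passed. Krt18 (10.35) and Krt8 (10.2) are also the keratins of hepatocytes, and Adipoq and Lep, which define fat cells, were at 3.55 and 3.57.

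Zonation markers covered both ends of the lobule. All 16 measured periportal genes were above background, from Cps1, Pck1, Arg1 and Ass1 (12.3) to Aldh1b1 (7.59) and Sds. Of pericentral genes 13 of 16 were, from Cyp2e1, Rgn (12.66), Gstm1 and Cyp1a2 to Axin2 (5.88). Slc1a2, a glutamate importer, Ahr, the aryl hydrocarbon receptor, and Lgr5, the Wnt-amplifying receptor of cells next to the central vein, were at 5.04, 4.34 and 2.87, below the threshold. Glul, the glutamine synthetase of those same cells, was at 10.68 ± 0.14.

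Families of sensory organs, nerve and body patterning read mostly near background. None of 23 vomeronasal and taste receptors passed and none of 24 Hox genes did, although 5 Hox genes passed a threshold at the 90th percentile of the background genes. Among neurotransmitter receptors 2 of 66 passed, Gabrd at 6.88 and Htr1b at 5.31, and among potassium channels 8 of 65 did, led by Kcnk3 at 6.54 and Kcnh3 at 6.46. At the 90th and 99th percentiles of the background genes these counts were 8 and 1 for the receptors, and 15 and 2 for the channels. Of 6 olfactory receptors 1 passed, Olr59 at 6.65 ± 0.21, or 2 at the 90th percentile. Of 25 keratins 5 passed and of 41 collagens 13, against 8 keratins and 22 collagens at the 90th percentile. Of 27 chemokines 13 passed, with Ccl9 at 11.93 and Cxcl12, the stromal chemokine, at 11.26, and of 27 interleukin and interleukin receptor symbols 9 did, with Il6r, the receptor through which the acute phase response is induced, at 8.18 ± 0.27, and Il6 itself at 2.49. At the 99th percentile 7 chemokines and 5 interleukin symbols passed. Of cell cycle genes 11 of 32 passed, against 21 at the 90th and 4 at the 99th percentile. Ccnd1, a cyclin of the first gap phase, was at 9.4 ± 0.26 and Pcna, the replication clamp, at 8.49 ± 0.057, while Mki67 and Top2a, present in cycling cells, were at 3.86 ± 0.36 and 4.73 ± 0.31.

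Differences between the 6 rats were small for most genes. The median SD over the 8511 genes above background was 0.102 on the log2 scale, and the central 80% of genes lay between 0.0510 and 0.206 (10th and 90th percentiles). An SD under 0.2 was seen in 7587 genes (89.1%), an SD over 0.5 in 75 (0.881%) and an SD over 1 in 10. Above a level of 4 to 5, brighter genes had smaller SDs. The median was 0.132 below a level of 3, 0.150 at 3 to 4, 0.151 at 4 to 5, 0.0994 at 7 to 8, 0.0742 at 10 to 11, 0.0652 at 12 to 13 and 0.0383 for the 43 genes above 13. In the dosed arrays, with the spread taken within each dose, the median SDs from the bin of 4 to 5 upwards, in the same bins, were 0.161, 0.119, 0.0843, 0.0683 and 0.0390. Of the 100 brightest genes 89 had an SD under 0.1, and their median SD was 0.0510.

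**Figure D2:**
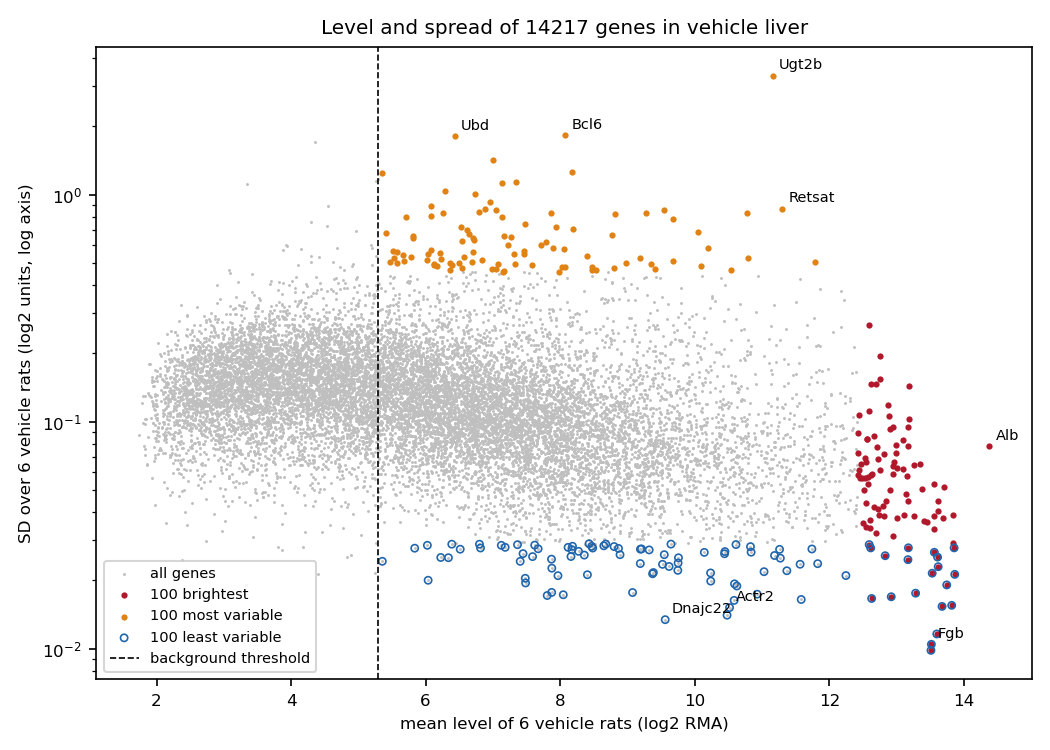
Mean level over the 6 vehicle rats (x axis, log2 RMA) against the SD over the same rats (y axis, log2 units, log axis) for 14217 genes, with the 100 brightest, 100 most variable and 100 least variable genes marked and the background threshold of 5.29 as a dashed line. The cloud sinks to the right, and 20 of the 100 brightest genes (red points with a blue ring) are also among the 100 least variable.

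The least variable transcripts covered a wide range of levels and functions. The 100 genes with the lowest SDs among those above background had SDs of 0.00983 to 0.0290, with the next gene outside at 0.0290194 and the last inside at 0.0289883, and a median level of 9.55. Apoc1, a small apolipoprotein, had the lowest, at 13.49, 13.51, 13.52, 13.52, 13.51 and 13.52 in rats 1 to 6. Fgb followed with 13.53, 13.51, 13.52, 13.5, 13.53 and 13.52, and Ambp, the precursor of alpha-1-microglobulin and bikunin, with 13.61, 13.59, 13.6, 13.58, 13.6 and 13.61. Apoh, Apoe, F2 (prothrombin), Serpinc1 and Fgg were further plasma proteins among the first 20, with SDs of 0.015, 0.016, 0.017, 0.018 and 0.019. The list held 3 subunits of respiratory complexes among its first 20, Ndufa13 at 10.59 ± 0.016, Ndufa3 at 10.93 ± 0.017 and Uqcr10 at 11.58 ± 0.016. At lower levels stood Dnajc22, a membrane J-domain protein, at 9.56 ± 0.013, Chmp5, a subunit of the ESCRT-III complex, at 10.48 ± 0.014, Actr2, a subunit of the actin-branching Arp2/3 complex, at 10.52 ± 0.015, Syngr2, a vesicle membrane protein, at 9.08 ± 0.018, and Dazap2 at 10.63 ± 0.019. Cdo1, which oxidises cysteine, was at 12.63 ± 0.017, Blmh, a cysteine protease, at 7.87 ± 0.018, Otud5, a deubiquitinase, at 8.05 ± 0.017, and Ccndbp1 at 7.81 ± 0.017. Of the 43 genes above a level of 13, 15 were among these 100, and 5 of the 35 respiratory chain genes were.

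The dosed arrays, which took no part in this choice, showed how far the low spread held. The pooled within-dose SD over 29 dosed rats had a median of 0.0745 for these 100 genes, against 0.122 for all genes above background, and their median percentile in dosed rats was 10.3. Of the 100, 48 were in the lowest 10% of dosed SDs and 91 in the lowest 50%. All 15 genes above a level of 13 were in the lowest 10%, and 33 of the other 85 were. These 15 lie near the top of the signal range, which ended at 14.44 on vehicle arrays, and all 43 genes above 13 had median SDs of 0.0390 in dosed rats and 0.0383 in vehicle rats. The part of a signal ceiling in their low SDs was not tested. The 100 genes with the lowest dosed SDs and the 100 with the lowest vehicle SDs shared 24, or 24% of each list. Among those 24 were Apoc1, Fgb, Ambp, Apoh, Apoe, F2, Serpinc1, Fgg, Gc, Itih3 and Dazap2. Genes with the lowest vehicle SDs mostly had higher dosed SDs, which their choice by the vehicle value favours. Apoc1 had a dosed SD of 0.04 and Dazap2 of 0.048, still at percentiles 0.47 and 0.928 of dosed SDs. Dnajc22 had a dosed SD of 0.10, Otud5 of 0.12, Blmh of 0.13 and Cdo1 of 0.11, at percentiles 31.4, 52.3, 57.9 and 36.3. When each SD was divided by the median SD of genes of like level, an alternative chosen after the data were seen, the 100 lowest shared 61 genes with the first choice and held 3 genes above a level of 13. Leaving out 1 vehicle rat at a time left 46 to 59 of the 100 in place.

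**Figure D3:**
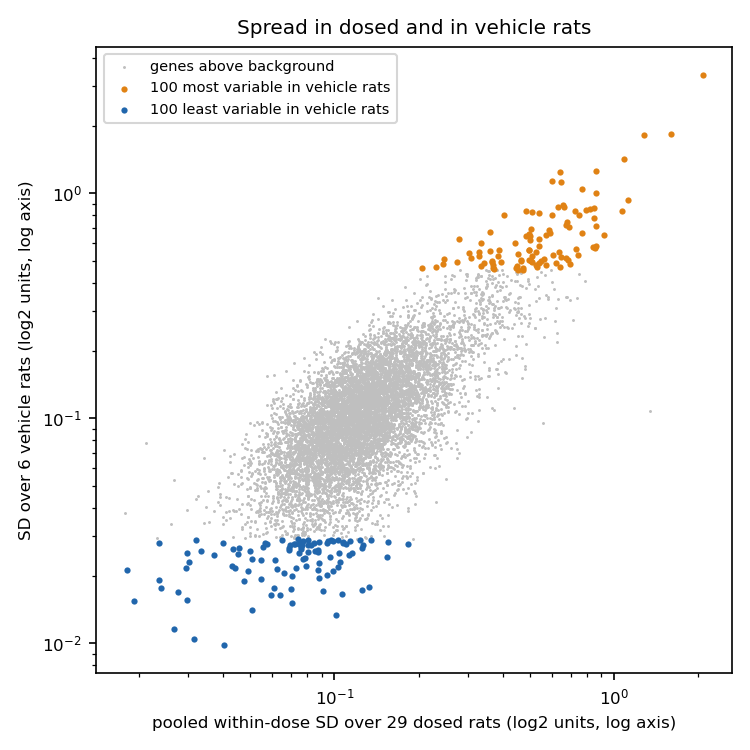
Pooled within-dose SD over 29 dosed rats (x axis, log2 units, log axis) against the SD over 6 vehicle rats (y axis, log2 units, log axis) for 8511 genes above background, with the 100 most and the 100 least variable genes in vehicle rats marked. The most variable genes keep to the right side, 99 of 100 in the highest 10% of dosed SDs, while the least variable spread over a wider stretch, 48 of 100 in the lowest 10%.

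Genes in common use as references for expression were not the steadiest. Of 19 listed, 12 had a probe set of 1 symbol, and all 12 were above background. Gusb, a lysosomal glucuronidase, had the lowest SD at 8.38 ± 0.039, with 8.35, 8.39, 8.43, 8.32, 8.41 and 8.4 in rats 1 to 6, and lay at percentile 4.25 of vehicle SDs. In dosed rats its percentile was 21.7. Hprt1, a purine salvage enzyme, was at 9.76 ± 0.051, Pgk1, a glycolytic kinase, at 11.68 ± 0.066, Eef1a1, an elongation factor, at 12.99 ± 0.079, Sdha, of respiratory complex II, at 10.49 ± 0.076, and Ywhaz, a 14-3-3 protein, at 9.71 ± 0.092. The ribosomal proteins Rplp0 and Rpl13a were at 12.15 ± 0.096 and 11.47 ± 0.11, Polr2a, the large subunit of RNA polymerase II, at 7.82 ± 0.12, and B2m at 13.35 ± 0.065. Tbp, the TATA-binding protein, was at 6.19 ± 0.20 and percentile 89.1, and Tfrc, the iron-regulated transferrin receptor, at 8.39 ± 0.25, with 8.33, 8.62, 8.23, 8.37, 8.73 and 8.06 in rats 1 to 6 and percentile 94. In dosed rats Tfrc lay at percentile 97.5 and Pgk1 at percentile 1.19. None of the 12 was among the 100 least variable of 8511 genes, a set so small that few of any 12 genes would be in it. The median SD of the 12 was 0.0853, below the 0.102 of all genes above background, whose median level was 7.32. The 12 had a median level of 10.13. At levels of 9 to 10 and 10 to 11 the median SD of all genes was 0.0798 and 0.0742, so the 12 were not steadier than genes of like level.

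The most variable transcripts fell into genes with 1 rat apart and genes that differed among all 6. The 100 highest SDs above background ran from 0.458 to 3.35, and the values just inside and outside were 0.457846 and 0.457581. Ugt2b, a glucuronosyltransferase symbol of the array annotation, had the highest, with 12.67, 12.48, 4.34, 12.72, 12.33 and 12.44 in rats 1 to 6: rat 3 was below the background threshold and the other 5 above 12. Its SD was 3.35, and 0.163 without rat 3. In the 29 dosed rats Ugt2b had a within-dose SD of 2.08, at percentile 100 of genes above background, so its wide spread was not confined to vehicle rats. The part of the high 5S rRNA control of rat 3 in the low Ugt2b value and in the list values of that rat was not tested. Retsat, the retinol saturase, had 9.53, 11.66, 11.63, 11.66, 11.76 and 11.58, with rat 1 apart and an SD of 0.87, or 0.0669 without that rat. Abca1, which exports cholesterol to apolipoproteins, had 9.46, 9.76, 9.33, 9.58, 9.91 and 7.64, with rat 6 apart and an SD of 0.83, or 0.234 without it. Pbsn had 5.12, 8.07, 6.81, 8.21, 7.44 and 7.2, with rat 1 lowest, and Gadd45g, a stress gene, 8.36, 6.04, 6.41, 6.3, 6.59 and 7.06, with rat 1 highest.

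Other genes were scattered over the whole group. Bcl6, a repressor that restrains female-type and lipid genes in male mouse liver, had 8.37, 9.14, 9.32, 5.35, 6.3 and 9.95 in rats 1 to 6, lowest in rats 4 and 5. Socs2, a feedback inhibitor of growth hormone signalling, had 6.33, 7.01, 6.99, 8.22, 7.79 and 5.94, highest in those rats, and so did Onecut1, a hepatocyte factor, with 6.69, 6.36, 6.36, 8.46, 7.73 and 6.13. Egr1, an immediate early gene, had 9.62, 9.32, 8.61, 6.51, 6.96 and 8.03. Cyp7a1, the rate-limiting enzyme of bile acid synthesis, had 11.58, 10.79, 11.3, 9.41, 10.2 and 11.38, lowest in rat 4. Ubd, a ubiquitin-like protein induced by interferon gamma, was at 7.81, 4.59, 7.59, 8.74, 4.86 and 5.02, high in rats 1, 3 and 4 and below the threshold in the others. Cdh17, an intestinal and liver cadherin, was at 7.63, 5.36, 6.5, 8.74, 5.52 and 8.27, and Mt2A, a metallothionein, at 10.18, 9.43, 9.06, 10.41, 8.12 and 10.03. The remaining genes of the first 20 were Rec114, Retreg1, Nfe2, Clca2, Cdkn3, Pcp4l1 and Serpinb9b, with SDs of 1.25, 1.13, 1.04, 1.01, 0.89, 0.87 and 0.83. These genes also varied in dosed rats: the median within-dose SD of the 100 was 0.538, their median percentile was 99.1, and 65 of them were among the 100 highest dosed SDs.

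**Figure D4:**
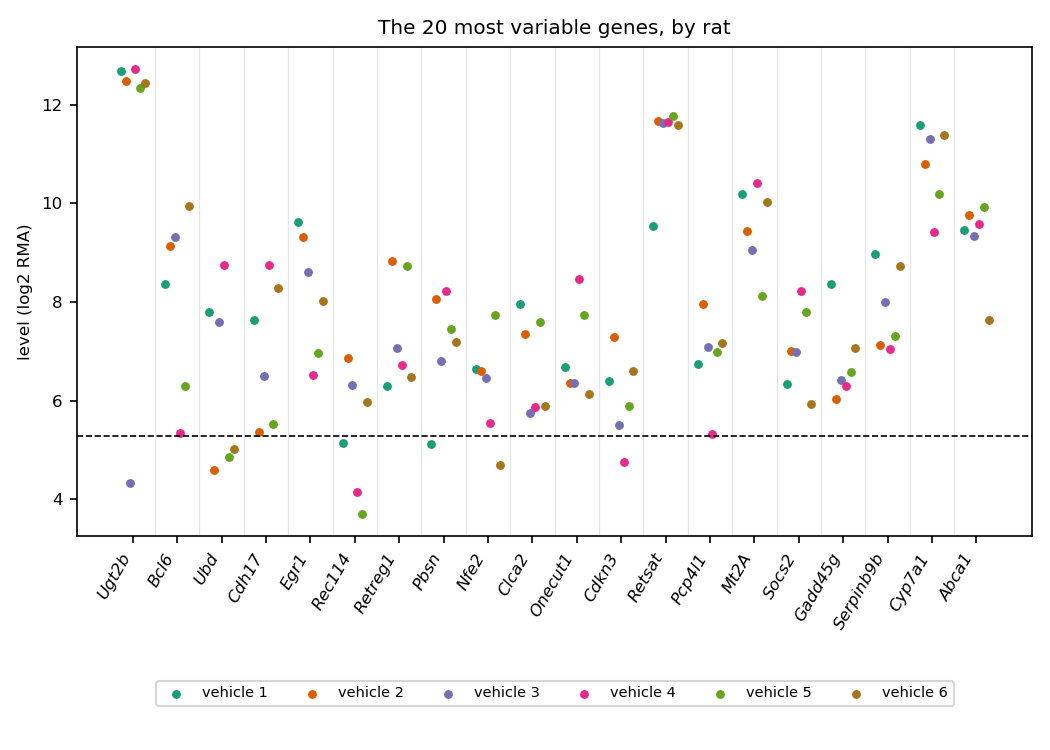
Level (y axis, log2 RMA) of the 20 genes with the highest SD over the vehicle rats (x axis, highest SD at the left), 1 point per rat, with the background threshold of 5.29 as a dashed line. Ugt2b, Retsat and Abca1 have 5 rats close together and 1 far below, while Bcl6, Ubd, Cdh17 and Egr1 are spread over several log2 units.

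No single rat carried the variable genes. The rat farthest from the median was rat 1 for 29 of the 100, rat 4 for 28, rats 5 and 6 for 13 each, rat 2 for 9 and rat 3 for 8. Over all genes above background the same count gave rat 1 a share of 21.2%, rat 4 18.4%, rat 5 18.6%, rat 6 17.7%, rat 3 13% and rat 2 11.1%.

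The mean deviations of several gene lists differed between rats. A list's deviation in a rat is the mean, over its measured genes, of the log2 level minus the vehicle mean of the gene. Cholesterol synthesis and uptake deviated by 0.15, 0.12, 0.25, -0.49, 0.12 and -0.16 in rats 1 to 6, lowest in rat 4, where 0 of 17 genes were above their mean. Insig1, a sterol sensor and the member with the highest SD, was at 10.76, 10.94, 11.19, 10.71, 11.31 and 9.83. Fatty acid and triglyceride synthesis deviated by 0.14, 0.074, 0.14, -0.24, 0.041 and -0.15, low in rats 4 and 6, and bile acid synthesis and transport by 0.061, 0.0026, 0.12, -0.22, -0.0049 and 0.045, low in rat 4. The interferon response list deviated by 0.26, 0.027, -0.51, 0.11, 0.061 and 0.058, low in rat 3, where 1 of 21 genes was above its mean. Mx2, an antiviral GTPase, was at 6.09, 6.1, 4.5, 5.91, 6.06 and 6.24 and Psmb8, an immunoproteasome subunit, at 9.0, 8.16, 7.71, 8.92, 8.54 and 8.53. The Kupffer cell list also read lowest in rat 3, with 0.053, 0.0004, -0.37, 0.23, 0.064 and 0.02, and 3 of 16 genes were above their mean there. Cd74, the invariant chain of MHC class II and the marker with the highest SD, was at 9.2, 8.98, 8.64, 9.82, 9.08 and 9.14. The cell cycle list deviated by 0.056, 0.42, -0.23, -0.25, -0.16 and 0.17, highest in rat 2, and Cdkn3, its most variable member, had 6.39, 7.28, 5.51, 4.75, 5.9 and 6.61. By contrast the respiratory chain list stayed close to its mean in every rat, with -0.015, 0.0029, 0.0039, 0.0081, 0.0006 and -0.00094, and so did the hepatocyte identity list, with -0.04, 0.016, 0.00047, 0.022, 0.017 and -0.015. Their median levels were 10.84 and 13.14, against 6.46 for the interferon list, 4.95 for the cell cycle list and 10.4 for cholesterol synthesis. Brighter genes had smaller SDs, and the part of level in this contrast was not tested.

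**Figure D5:**
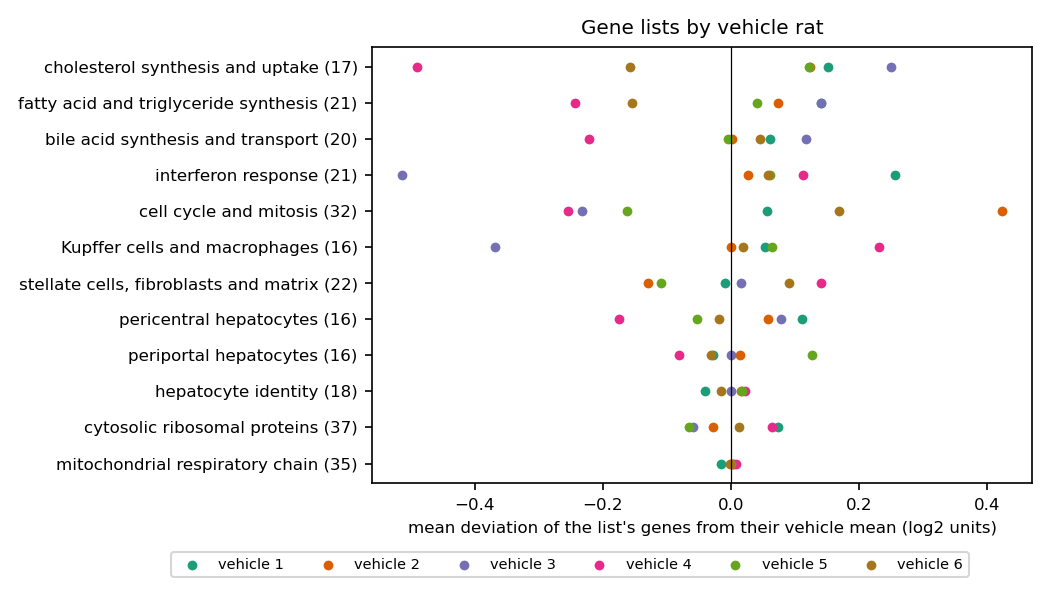
Mean deviation of the genes of a list from their vehicle means (x axis, log2 units) for 12 lists (y axis, number of genes in brackets), 1 point per vehicle rat. Vehicle rat 4 is at -0.49 for cholesterol synthesis, rat 3 at -0.51 for the interferon response and rat 2 at 0.42 for the cell cycle, while all rats lie near 0 for the respiratory chain.

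The vehicle rats were last set against the rest of the series. The question was whether the levels and the spread described above are particular to vehicle rats. The mean of the 5 doses minus vehicle was tested by limma for each of 31042 probe sets, and 0 passed a Benjamini-Hochberg adjusted p of 0.05 (0% called), with a smallest adjusted p of 0.851. At an unadjusted p under 0.05 there were 1114, where 1552.1 are given by chance alone. In simulated data for the same comparison, each shift was given to all 5 doses alike, with noise independent between probe sets. There 96 of 100 shifts of 0.5 and 100 of 100 shifts of 1 log2 unit were recovered, with 11 false calls among 207. A change at some doses only was not simulated, and the mean of the 5 doses would dilute it. For the markers, Alb averaged 14.39 in dosed rats and 14.38 in vehicle rats. The root mean square deviation of an array from its group, scaled for group size and taken over genes above background, averaged 0.169 ± 0.0245 in dosed rats (SD, n = 29) and 0.158 ± 0.0140 in vehicle rats (SD, n = 6). The difference of 0.0114 was smaller than the spread between arrays, with p = 0.284 in an exact two-sided permutation test over 1623160 regroupings.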

How the data were processed

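RNA from 35 rat livers was measured on 1 Affymetrix array each. The deposited values are RMA expression values made with affy, per the submitters' processing notes (no version stated there), and were taken as log2 by the convention of RMA. RMA subtracts background, gives all arrays 1 distribution and summarises probes by probe set. Per the labels' protocols, RNA of integrity number 7 or more was used and 100 ng amplified. The number of arrays limits the precision.

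After control probe sets were left out, 31042 probe sets stayed: 20826 with 1 gene symbol in the platform annotation, 436 with several and 9780 with none. Of those with 1 symbol, 20758 matched a current RefSeq gene, which changed 0 symbols. They gave 14217 genes, each by its probe set with the highest vehicle mean. Means and SDs were computed with Python 3.11.15, numpy 2.4.6, pandas 2.3.3 and scipy 1.17.1. limma 3.58.1, run in R 4.3.3 over all probe sets with a mean for each of 6 dose groups, compared dosed with vehicle arrays under Benjamini-Hochberg adjustment and was tested on simulated data. Labels do not say whether rats were processed together, and p-values measure the spread between these rats.

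Named are the 40 brightest genes, the 20 least and 20 most variable above background, the markers, the common reference genes, the 5 highest background genes and, of each list, up to 6 highest, 4 lowest, the first 2 as written and those of extreme SD. Members and lists were chosen with earlier results of these data known. Functions of the 100 brightest genes were assigned after these were seen. Other thresholds, probe set rules, normalizations and left-out rats were tried.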

Additional observations from a re-analysis of the deposited data

Results flagged for a closer look

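Of 287 genes and gene lists reported above, 22 had a vehicle rat whose gap to the nearest other rat exceeded Dixon's 95% critical value of 0.625 of the range for 6 samples. Chance flags about 5% of groups not chosen for their spread. Some of these genes were named for an extreme SD, so that share does not hold for the whole set. The rats concerned were spread over the group: rat 1 had 5, rat 2 1, rat 3 6, rat 4 4, rat 5 4 and rat 6 2.

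Most outlying rats read low. Abca1 read 7.64 in rat 6, against 9.33 to 9.91 in the other rats. Alb read 14.23 in rat 5, against 14.39 to 14.44 in the other rats. Atp5pb read 12.21 in rat 5, against 12.25 to 12.26 in the other rats. C1qa read 9.06 in rat 3, against 9.55 to 9.75 in the other rats. Cel read 4.19 in rat 1, against 4.46 to 4.59 in the other rats. Cfp read 6.69 in rat 3, against 7.23 to 7.5 in the other rats. Cth read 12.41 in rat 1, against 12.7 to 12.83 in the other rats. Cyp8b1 read 10.08 in rat 4, against 10.6 to 10.83 in the other rats. Kcnh3 read 6.3 in rat 5, against 6.47 to 6.56 in the other rats. Mx2 read 4.5 in rat 3, against 5.91 to 6.24 in the other rats. Retsat read 9.53 in rat 1, against 11.58 to 11.76 in the other rats. S100a8 read 3.66 in rat 6, against 3.87 to 3.91 in the other rats. Ugt2b read 4.34 in rat 3, against 12.33 to 12.72 in the other rats.

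The others read high. Hamp read 12.72 in rat 4, against 12.27 to 12.38 in the other rats. Hkdc1 read 3.87 in rat 2, against 3.52 to 3.62 in the other rats. Klkb1 read 11.61 in rat 1, against 11.21 to 11.34 in the other rats. Lcn2 read 5.9 in rat 5, against 4.89 to 5.2 in the other rats. Sult2a1 read 2.25 in rat 1, against 1.89 to 2.02 in the other rats. Sult2a2 read 2.49 in rat 4, against 2.28 to 2.32 in the other rats. Of the genes flagged low or high, Cel, S100a8, Hkdc1, Sult2a1 and Sult2a2 were below the background threshold of 5.29 in every rat. Lcn2 was below it in every rat but rat 5. Gaps at such levels cannot be told apart from noise near background.

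Among gene lists, as mean deviations from the vehicle mean on the log2 scale, bile acid synthesis and transport stood at -0.22 in rat 4, against -0.0049 to 0.12 in the other rats, and complement components stood at -0.095 in rat 3, against -0.0016 to 0.047 in the other rats, with 9 of its 21 genes above their mean in rat 3. The interferon response list stood at -0.51 in rat 3, against 0.027 to 0.26 in the other rats.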

How the results depend on the processing

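The median SD between vehicle rats was 0.102 in genes above background, 0.0848 when taken as a scaled median absolute deviation and 0.120 over all genes with no filter on level. Of the 100 least variable transcripts, 53 were shared after a second quantile normalization, 58 after centring each array on its median, 61 with the SD relative to genes of like level (chosen after seeing the data), and 46 to 59 when 1 vehicle rat was left out. The cause was not tested. Genes above background numbered 6959 to 9768 over the thresholds and other settings tried, and the 100 brightest shared 85 to 100 genes with the first choice. The difference in spread between dosed and vehicle arrays stayed between 0.00589 and 0.0151, with exact permutation p of 0.192 to 0.606. The limma comparison called 0 probe sets in every setting tried, with 358 to 1287 at an unadjusted p under 0.05. With the replicate block it called 0, with 1112 at an unadjusted p under 0.05 and a smallest adjusted p of 0.817, against 0.384 to 0.999 over the settings tried. Same-numbered arrays did not deviate together on average (mean correlation -0.0111 over 85 pairs, from -0.314 to 0.313). A mean near 0 cannot show whether the numbers follow a shared batch or order, which the labels do not give. Of 64 gene lists and families, the count above background kept within 1.5 times in 53 at the 90th and 56 at the 99th percentile of background genes. The cell cycle list (21 and 4, against 11), potassium channels (15 and 2, against 8) and neurotransmitter receptors (8 and 1, against 2) were among those that moved further. Low levels are limited by the lack of detection calls.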

Other observations

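Several genes with clear differences between vehicle rats had means near or below the threshold and so stood outside the counts of variable genes. They were chosen after their values were seen. RT1-Bb, a beta chain of rat MHC class II, was at 6.13, 3.79, 3.25, 6.86, 2.91 and 3.17 in vehicle rats 1 to 6, above the threshold in rats 1 and 4 and below it in the others. Lum, a small proteoglycan of connective tissue, was at 5.75, 3.35, 6.08, 6.05, 4.34 and 6.17, above the threshold in 4 of 6 rats. Nr1d1, the repressor of the clock, was at 6.1, 4.02, 4.42, 3.58, 4.15 and 4.99, above it in rat 1 alone.

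In 2 genes, also chosen after their values were seen, the vehicle rats and the dosed rats gave unlike pictures of the spread. Ephx2, the soluble epoxide hydrolase, had an SD of 1.34 within doses and ranged from 5.23 to 8.81 in dosed rats, whereas the 6 vehicle rats were at 5.89, 6.07, 5.88, 5.86, 5.84 and 6.07, with an SD of 0.11. Alb had an SD of 0.021 within doses, against 0.078 in vehicle rats, where rat 5 stood lowest.

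Of 10216 probe sets without a single gene symbol in the platform annotation, 2236 (21.9%) were above the background threshold, and the brightest stood at 14.03. These are unnamed here.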
